A study of Mus musculus with 2 samples.

Results

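Metallothioneins and the genes that handle zinc around them were followed in embryonic mouse tongue with and without Osr1 in the neural crest lineage. Rows of both deposited expression tables were taken for the 5 genes Mt1, Mt2, Mt3, Mtf1 and Slc30a1, out of 22072 gene symbols in all, and values were summed per symbol. The 5 genes were chosen from earlier results of these same libraries, in which Mt2 was among the genes with the largest lower values. The differences given here are therefore descriptions and support nothing independently. All 5 had a row, and 4 of the 5 reached 1 FPKM in either library, as did 12383 of all symbols with a usable status in both libraries. These are called measured below.

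Tongues were dissected at embryonic day 12 from embryos of mixed background. Osr1 encodes a zinc finger transcription factor. Control embryos (Osr1f/+) had a conditional and a wild-type copy of it. In mutant embryos (Osr1f/-; Wnt1cre) the other copy was null, and Cre recombinase under the Wnt1 promoter deletes the conditional copy in the neural crest lineage. Cells of the tongue outside that lineage, such as muscle, epithelium, blood and vessel cells, keep the conditional copy, and every cell of the mutant has the null copy. The control is not labelled as carrying Wnt1cre, so the presence of Cre and the loss of Osr1 cannot be told apart. Tongues were pooled before RNA extraction, and each genotype gave 1 library, so no test between genotypes could be made. The file names place the libraries on different sequencing lanes, so the lane and the genotype cannot be told apart either.

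Values are FPKM, fragments per kilobase of transcript, scaled to the mapped fragments of the library. Depth, estimated from the deposited coverage, was about 18900000 mapped reads for control and 23100000 for mutant tongue. Each ratio is mutant FPKM over control FPKM, with a 95% interval that covers counting error only. It holds no variation between embryos or between library preparations, and amplified reads are not independent molecules. Osr1 had 56.8 FPKM in control and 18.4 FPKM in mutant tongue, in the direction of the labels. All 6 muscle and all 8 epithelial markers listed for the tongue were measured. In bulk RNA, fewer cells of a type and less RNA per cell cannot be told apart.

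Metallothioneins are small proteins rich in cysteine that bind zinc and copper and buffer the free metal in the cell. Mtf1 is the zinc-sensing transcription factor that enters the nucleus when zinc is plentiful. It binds metal response elements in the promoters of Mt1 and Mt2 and of Slc30a1, whose product exports zinc through the plasma membrane. Mt1 and Mt2 are found in most tissues and also respond to glucocorticoids and to oxidative stress. Mt3 is known mainly from brain and Mt4 from stratified epithelium.

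The promoters of Mt1, Mt2 and Slc30a1 are shown because all 3 genes are known targets of Mtf1, while their ratios in these libraries were unlike. The sequences come from RefSeq on build GRCm38.p6, in which all 5 genes had an entry, and each holds the 250 bases before the gene's annotated start, 5′ to 3′ on the gene's strand. Capitals mark matches to the core of the metal response element, searched as TGCACNC and TGCGCNC on both strands. The stretch of Mt1 lies at chr8:94178839-94179088, that of Mt2 at chr8:94172368-94172617 and that of Slc30a1 at chr1:191906531-191906780, all on the plus strand.
Mt1: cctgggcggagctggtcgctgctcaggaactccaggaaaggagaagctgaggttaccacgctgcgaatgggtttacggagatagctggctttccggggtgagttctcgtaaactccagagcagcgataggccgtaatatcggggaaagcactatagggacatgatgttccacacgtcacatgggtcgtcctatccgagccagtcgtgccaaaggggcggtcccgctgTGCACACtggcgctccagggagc
Mt2: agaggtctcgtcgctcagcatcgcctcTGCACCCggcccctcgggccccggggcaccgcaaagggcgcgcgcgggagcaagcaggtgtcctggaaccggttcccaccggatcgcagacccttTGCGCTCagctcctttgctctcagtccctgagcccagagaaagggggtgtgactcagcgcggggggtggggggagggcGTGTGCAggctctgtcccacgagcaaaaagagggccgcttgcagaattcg
Slc30a1: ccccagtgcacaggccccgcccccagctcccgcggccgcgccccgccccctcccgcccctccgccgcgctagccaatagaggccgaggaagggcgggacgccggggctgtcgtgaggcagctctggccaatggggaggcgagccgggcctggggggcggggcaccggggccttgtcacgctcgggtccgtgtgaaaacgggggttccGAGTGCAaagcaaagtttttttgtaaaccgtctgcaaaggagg

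The stretch before the annotated start held 3 cores in Mt2, 1 in Mt1 and 1 in Slc30a1. In Mt2 they began 223, 128 and 50 bases before the start, in Mt1 23 bases before it, and in Slc30a1 43 bases before it. The 50 bases after the annotated start, searched too, added 2 cores in Mt1, 1 in Mt2 and 1 in Slc30a1. The Mt1 pair stands in the stretch below, at chr8:94179091-94179115 on the plus strand, with the cores in capitals.
Mt1 after the start: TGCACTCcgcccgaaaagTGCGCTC

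Over the whole window of 300 bases, Mt2 held 4 cores, Mt1 held 3, Slc30a1 held 2, Mt3 held 1 and Mtf1 held 0. Among all 32851 promoter windows of that length in the table, 25.7% held at least 1 core, 7.11% at least 2, 1.97% at least 3 and 0.517% at least 4. These are matches of letters and not measured binding sites, and elements outside the window were not searched. Which bases count as before or after rests on the annotated start, which was not checked against measured starts of transcription. A start at another place would shift the window and could change the counts, so no difference between genes is read from them.

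Mt2 (NM_008630, mm9 chromosome 8, 96696518 to 96697467) had 25.6 FPKM in control and 11.8 FPKM in mutant tongue. These values rest on about 268 and 152 reads of a transcript of 556 nt. The ratio was 0.463 (counting interval 0.377 to 0.567), a difference far larger than the counting error.

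Mt1 (NM_013602, mm9 chromosome 8, 96702989 to 96704227) starts 6.47 kb from the start of Mt2. It had 14.8 FPKM in control and 11.2 FPKM in mutant tongue, from about 152 and 140 reads of a transcript of 542 nt. The ratio was 0.755 (counting interval 0.593 to 0.952). Mt1 was lower in the mutant library as well, but its interval ended close to 1 and lay above that of Mt2.

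The pair therefore differed unequally, a comparison within each library that needs no scaling between them. Per length, Mt2 stood 1.72 times above Mt1 in the control (counting interval 1.4 to 2.11). In the mutant library the same quotient was 1.06 (0.836 to 1.34), so that the levels of the 2 genes could not be distinguished there. The quotient in the mutant was 0.614 of that in the control (exact conditional interval 0.449 to 0.844). Taken as a sum, Mt1 and Mt2 had 40.4 FPKM in control and 23.0 FPKM in mutant tongue, giving a ratio of 0.570 (0.487 to 0.661).

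Annotated transcripts of Mt1 and Mt2, not limited to the deposited models, were searched for exact stretches shared with annotated transcripts of other genes. Inexact matches and sequence outside annotated transcripts were not searched. Of 1292 different stretches of 50 nt in the protein-coding Mt1 transcripts of the GENCODE annotation, 0 occurred in a transcript of another gene. Of 554 such stretches in Mt2, 254 occurred in another gene, and that gene was Gm45774. Both strands were searched together, and the strand and position of Gm45774 were not looked up. Gm45774 was not named in the deposited tables, and the strand setting is not known here, so reads of Mt2 and of Gm45774 in these stretches cannot be told apart.

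**Figure D1:**
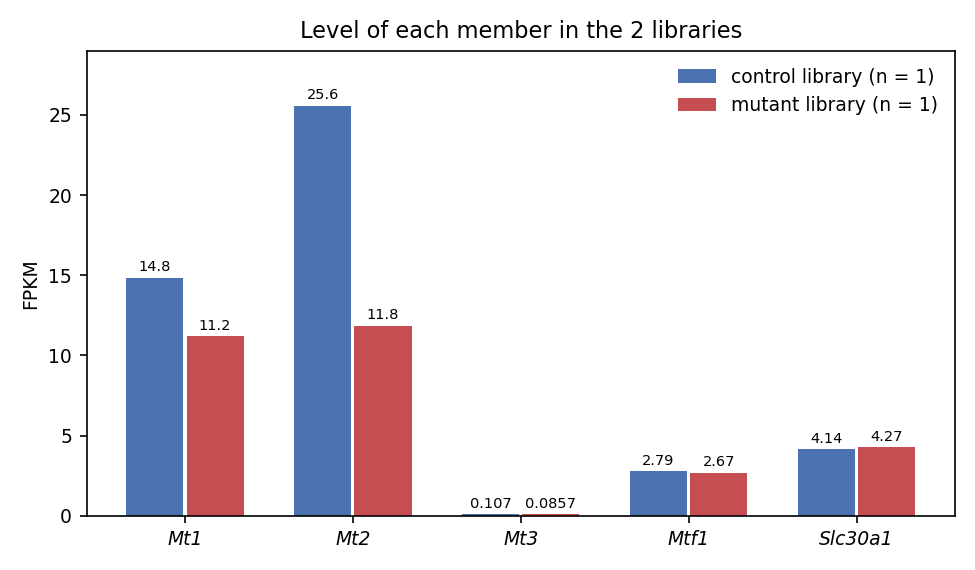
Bars give the FPKM of each of the 5 genes in the control (blue) and mutant (red) library, 1 library each and without error bars. Mt2 goes from 25.6 to 11.8 FPKM and Mt1 from 14.8 to 11.2, while Mtf1 and Slc30a1 have bars of nearly the same height in both libraries and Mt3 is close to 0.

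Mt3 (NM_013603, mm9 chromosome 8, 96676507 to 96678048) had 0.107 FPKM in control and 0.0857 FPKM in mutant tongue. Each value rests on about 1 read and lies under the floor of 3 reads, which for its 538 nt equals 0.296 and 0.241 FPKM, so no ratio is given. Mt4, the remaining gene of the cluster (chromosome 8, 96661104 to 96662931), was listed at 0 in both libraries. A count of 0 allows up to 0.407 FPKM in control and 0.332 FPKM in mutant tongue. The metallothionein RNA detected in these tongues was thus that of Mt1 and Mt2.

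Mtf1 (NM_008636, mm9 chromosome 4, 124479793 to 124527044) had 2.79 FPKM in control and 2.67 FPKM in mutant tongue. With about 401 and 471 reads the ratio was 0.960 (0.838 to 1.10), within counting error of 1. The RNA level does not measure the activity of the protein, which depends on zinc. The last 316 bases of the Mtf1 model overlap 1110065P20Rik, which had 9.66 and 10.6 FPKM.

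Slc30a1 (NM_009579, mm9 chromosome 1, 193730660 to 193737126) had 4.14 FPKM in control and 4.27 FPKM in mutant tongue. The ratio was 1.03 (0.905 to 1.18), from about 408 and 516 reads. Its interval included 1 and lay wholly above that of Mt2. Its start overlaps 1700034H15Rik, listed at 0.354 and 0.356 FPKM.

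Of the 4 measured members, 1 was at least 1.5-fold lower on the scale of FPKM plus 1 (Mt2), where 0.581% of all measured genes were, and 0 were at least 1.5-fold higher, against 0.896% of all. At 1.2-fold, 2 of 4 were lower (Mt1 and Mt2), against 3.46% of all measured genes, and 0 of 4 higher, against 4.77%. The counting interval lay below 1 for 2 of 4, against 10.2% of all, and above 1 for 0 of 4, against 10.7%. The members were chosen on this same difference, so nothing is read from these shares. The log2 ratio of FPKM plus 1 was -1.05 for Mt2, -0.38 for Mt1, -0.04 for Mtf1 and 0.04 for Slc30a1, beside a median of 0.0035 over all measured genes.

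Both metallothionein transcripts are short, and short transcripts scatter more. Of 373 measured genes with a transcript under 600 nt, 11.5% were at least 1.5-fold lower and 15.8% at least 1.5-fold higher in the mutant library. Their counting interval lay below 1 in 4.83% and above 1 in 9.92%. In a class chosen after the values were seen, transcripts of 400 to 600 nt with 10 to 40 FPKM in the higher library, 1 of 49 genes was at least 1.5-fold lower, which was Mt2, and 1 was at least 1.5-fold higher. In the same class 6 of 49 were at least 1.2-fold lower, Mt1 and Mt2 included, and 2 were at least 1.2-fold higher.

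**Figure D2:**
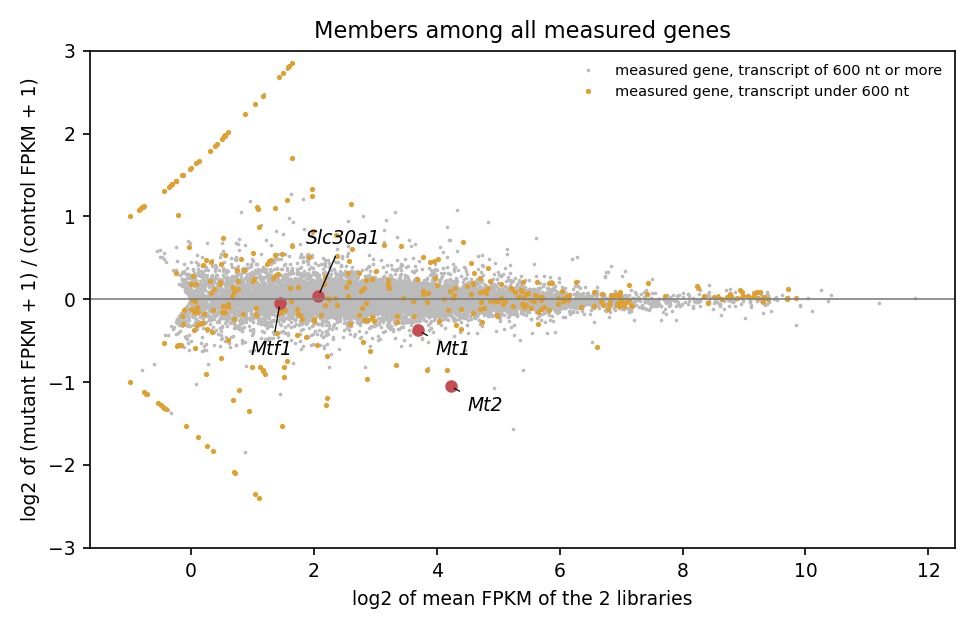
Each point is a measured gene, with the log2 of its mean FPKM on the horizontal axis and the log2 ratio of FPKM plus 1 (mutant over control) on the vertical axis, which leaves out 6 genes beyond its ends. Genes with transcripts under 600 nt are orange and the 4 measured members red, and Mt2 lies at -1.05 below the cloud of genes of its level while Mtf1 and Slc30a1 lie inside it.

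With only 2 libraries, the pattern of a gene is a single ratio, and many genes share any given value. The named genes of at least 5 FPKM nearest to Mt2 in log2 ratio included Thbs4 and Rpl26, with ratios of 0.461 and 0.356. Those nearest to Mt1 were Exosc6, Eef1e1 and Lbh, with ratios of 0.753, 0.759 and 0.761. The Rpl26 and Exosc6 models each overlap another gene. Likeness over 2 libraries carries no more than these values.

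Position was a property that the choice of genes did not use. The 4 metallothionein genes span 43.1 kb on mm9 chromosome 8, and 8 other symbols had a row within 200 kb of them, of which 6 were measured. Of these 6, 3 were higher and 3 lower, where 51.2% of all measured genes were higher and 48.8% lower, and the median log2 ratio was 0.0071. Nup93, a nuclear pore gene that starts 42.0 kb from the start of Mt2 on the Mt1 side, had 26.0 FPKM in control and 25.9 FPKM in mutant tongue, giving a ratio of 0.996 (0.928 to 1.07). Bbs2, a ciliary gene on the other side, had 5.95 and 6.05 FPKM, giving a ratio of 1.02 (0.877 to 1.18). The intervals of both lay above that of Mt2. Among the others, Nudt21 had a ratio of 0.961 and Ogfod1 of 1.04, both with intervals that included 1. Gnao1, which encodes a G protein subunit abundant in neurons, had the lowest ratio of the 6, 0.816, with an interval of 0.761 to 1.03 from its summed reads.

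**Figure D3:**
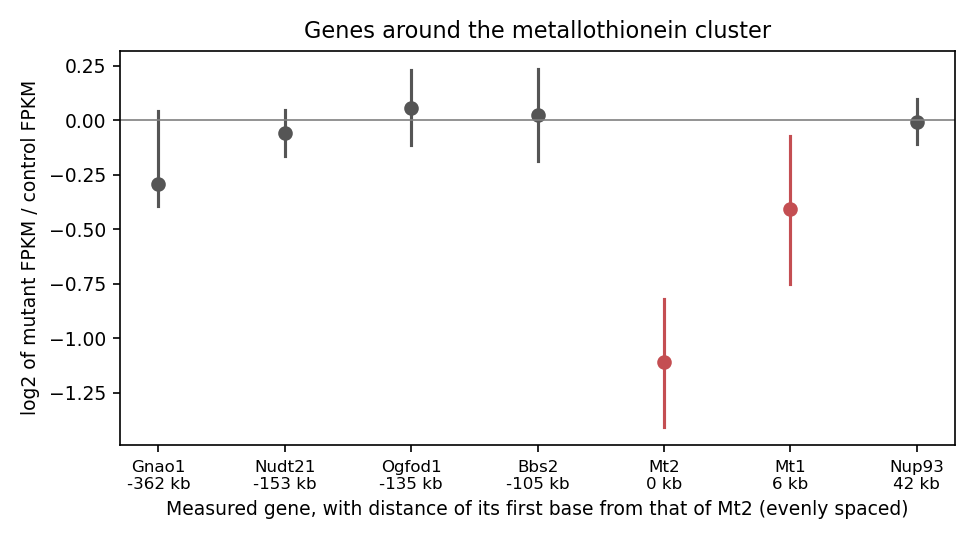
Points give the log2 of mutant over control FPKM of measured genes around the metallothionein cluster in their order on the chromosome, and lines the 95% counting interval. The labels give the distance of each gene's first base from that of Mt2. Mt1 and Mt2 (red) lie below 0, and the interval of each of the 5 neighbours drawn (grey), of 6 measured, includes 0.

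No measured zinc transporter differed beyond its counting error. The SLC30 family moves zinc out of the cytosol, into organelles or out of the cell, and 6 of its 10 genes were measured, with 3 higher, 3 lower and a median log2 ratio of 0.01. The 4 exporters with the largest differences at 5 FPKM or more were Slc30a6, Slc30a9, Slc30a5 and Slc30a4. Slc30a6, a transporter of the Golgi region, had 6.02 and 6.89 FPKM, giving a ratio of 1.14 (0.967 to 1.35). Slc30a5, of the secretory pathway, had 19.6 and 19.0 FPKM, giving a ratio of 0.969 (0.896 to 1.05). Slc30a9 and Slc30a4 had ratios of 1.04 and 0.983. Slc30a7 had a ratio of 0.993. Among those not measured, Slc30a10, a manganese exporter of this family, had 0.142 and 0.372 FPKM, from about 16 and 50 reads, and its interval of 1.43 to 4.8 did not include 1.

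The SLC39 family brings zinc into the cytosol, and 9 of its 14 genes were measured, with 4 higher, 5 lower and a median of -0.05. Slc39a7, a zinc channel of the endoplasmic reticulum, had the highest level of the measured transporters per length, 45.2 FPKM in control and 45.3 FPKM in mutant tongue. Slc39a6 had 26.6 and 25.1 FPKM, giving a ratio of 0.946 (0.890 to 1.01), and Slc39a10, a plasma membrane importer that Mtf1 is known to repress, had 25.2 and 26.1 FPKM, giving a ratio of 1.04 (0.981 to 1.09). Slc39a3 and Slc39a9 had ratios of 0.951 and 0.966, and Slc39a8 had the lowest of the family, 0.914 (0.782 to 1.12). Across both families 15 genes were measured, their ratios ran from 0.914 to 1.14, and the counting interval included 1 in all 15. Over all measured genes it lay below 1 in 10.2% and above 1 in 10.7%, so most genes share this. Slc39a14 was left out for the status of one of its rows, and Slc39a7 and Slc39a8 are named for their place in the order, seen after their values.

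**Figure D4:**
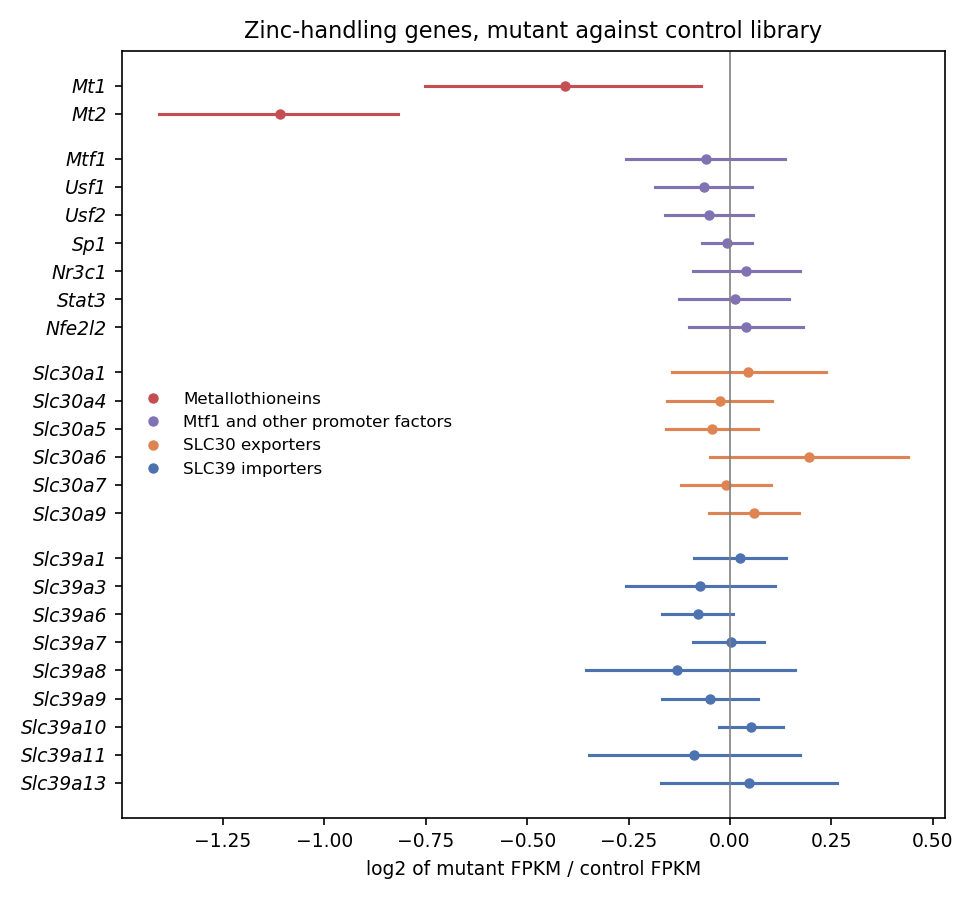
Points give the log2 of mutant over control FPKM and lines the 95% counting interval for the 2 detected metallothioneins, the factors known at their promoters, and the measured zinc exporters and importers. Mt1 and Mt2 are the genes in the plot whose intervals do not reach 0, and the 15 transporters lie between ratios of 0.914 and 1.14.

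Of the factors known to act at metallothionein promoters, all 7 were measured, 3 higher and 4 lower, with a median log2 ratio of -0.0073, and 0 of the 7 were 1.2-fold different in either direction. That count is near the background, since 3.46% of all measured genes were 1.2-fold lower and 4.77% higher. The E-box factors Usf1 and Usf2 had ratios of 0.956 (0.880 to 1.04) and 0.964 (0.895 to 1.04). Nfe2l2, the regulator of the antioxidant response, and Nr3c1, the glucocorticoid receptor, both had ratios of 1.03. Their RNA level does not measure their activity.

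Other responses that share inducers with metallothioneins were described by their genes. Of 7 measured glucocorticoid-responsive genes, 6 were higher and 1 lower, with a median of 0.16, which was 0.06 among those with at least 5 FPKM. Zbtb16 and Cebpd among the higher ones reached 1 FPKM only in mutant tongue, so under the filter they had to be higher. Sgk1, a kinase gene, had 5.50 FPKM in control and 7.18 FPKM in mutant tongue, giving a ratio of 1.31 (1.11 to 1.52), and Errfi1 had 1.13 (1.0 to 1.27). Fkbp5, which encodes a chaperone of the receptor, had 16.5 and 15.1 FPKM, giving a ratio of 0.915 (0.842 to 0.993), and Per1 had 1.05.

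The median of 10 antioxidant genes was -0.10, of which 7 were lower and 3 higher. Hmox1, which encodes heme oxygenase, had 11.9 and 9.07 FPKM, giving a ratio of 0.762 (0.655 to 0.889) that is near that of Mt1. Nqo1, a quinone reductase gene named after its values were seen, went the other way, with 2.27 FPKM in control and 4.91 FPKM in mutant tongue, giving a ratio of 2.16 (1.61 to 2.89). The glutathione synthesis genes Gclm and Gss had ratios of 0.889 and 0.903, with intervals that included 1, and Txnrd1 had 0.943 (0.903 to 0.992). Of 4 measured STAT3-responsive genes, 2 were higher and 2 lower, with a median of -0.01. With at least 5 FPKM only Socs3 and Stat3 were left, and the median was -0.15, while Cebpd, counted here too, had to be higher under the filter. Socs3 among them had 6.81 and 5.26 FPKM, giving a ratio of 0.772 (0.662 to 0.900), and Stat3 had 1.01.

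Genes for copper and iron were listed as a comparison with other metals. The 8 measured copper genes had a median of -0.03, with 6 lower, 2 higher and an interval that included 1 in all 8, as in most genes. Commd1, Atox1, Slc31a1 and Cox17 had ratios of 0.927, 0.940, 1.06 and 0.975. The 9 iron genes, 5 lower and 4 higher, had a median of -0.04 (-0.02 at 5 FPKM or more). Of these 9, 2 were at least 1.2-fold lower, against 3.46% of all measured genes, and 3 had an interval below 1, against 10.2%. The 2 were Hfe and Steap3, which reached 1 FPKM only in control. Tfrc, the transferrin receptor, had a ratio of 0.913 (0.855 to 0.974), the ferritin heavy chain Fth1 had 0.945 (0.906 to 0.986), and Slc11a2 and Ireb2 had 1.05 and 0.973. Steap3, a ferrireductase gene of red cell precursors chosen after seeing its values, had 1.35 FPKM in control and 0.653 FPKM in mutant tongue, giving a ratio of 0.484 (0.326 to 0.728), close to that of Mt2. Hfe, which encodes a regulator of iron uptake, had 1.0 and 0.597 FPKM, giving a ratio of 0.595 (0.336 to 1.04). Under the filter, no other direction was possible for Hfe and Steap3.

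Mutant tongue also had lower summed values for the markers of several cell types. Of the erythroid markers, 6 of 10 were measured and all 6 were lower, with a median of -0.28. The summed level was 1430 FPKM in control and 1178 FPKM in mutant tongue. Most of that sum was Hbb-y, with 1022 and 827 FPKM, giving a ratio of 0.810 (0.789 to 0.831). Slc4a1 and Hbb-bh1 had ratios of 0.747 and 0.796. Of the neuron markers, 9 of 10 were measured and 6 of the 9 were lower, with a median of -0.29 (-0.13 at 5 FPKM or more) and sums of 46.2 and 35.4 FPKM. Tubb3 and Gap43 had ratios of 0.50 and 0.809, and some of the lower markers, among them Elavl4 and Snap25, reached 1 FPKM only in control. The 3 higher ones were Stmn2, Nefm and Isl1, with ratios of 1.17, 1.10 and 1.01, and the interval of each included 1. At 5 FPKM or more, Tubb3 and Gap43 were lower and Isl1 and Nefm higher, so the list was divided there. Nefm reached 5 FPKM only in mutant tongue. Of the Schwann and glia markers, 7 of 10 were measured and 5 of the 7 were lower, with a median of -0.16 and sums of 54.4 and 45.7 FPKM. Ngfr had a ratio of 0.849.

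Of the 8 epithelial markers, 7 were lower, with a median of -0.13, and Krt5 and Krt15 had ratios of 0.796 and 0.853. The summed level was 126.7 FPKM in control and 111.7 FPKM in mutant tongue. Of 6 endothelial markers, whose median was 0.02, 4 were higher, among them Pecam1 (ratio 1.24) and Erg (1.27). All 4 measured macrophage markers of 6 were higher, around a median of 0.08 (0.03 at 5 FPKM or more), among them Laptm5 (1.02). The 6 muscle markers, 3 of them higher, had a median of 0.03, and Actc1 and Myf5 had ratios of 1.08 and 0.910. No listed marker of any of these cell types was at 0 in both libraries. Summed levels of the erythroid, neuron, Schwann and epithelial markers had ratios of 0.824, 0.767, 0.840 and 0.882, against 0.570 for Mt1 and Mt2 together. The part of these cell types in the values of Mt1 and Mt2 was not tested.

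**Figure D5:**
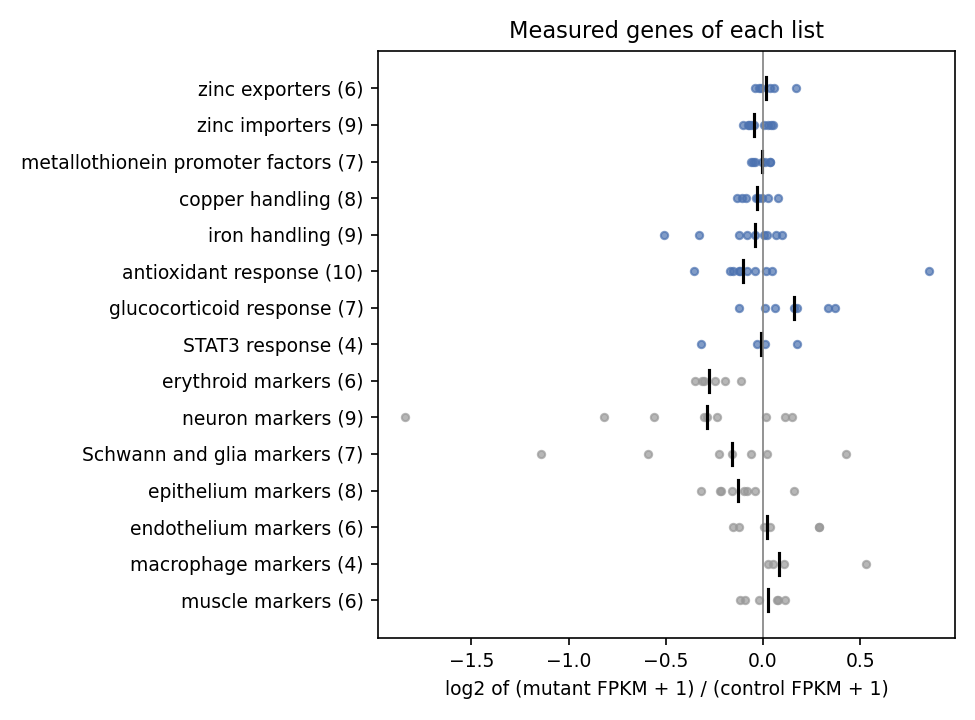
Each point is a measured gene of the list named on the vertical axis, with the number measured in parentheses, at its log2 ratio of FPKM plus 1, and the black mark is the median of the list. Zinc transporter and promoter factor lists lie close to 0, and the erythroid, neuron, Schwann and epithelial marker lists (grey) have medians from -0.29 to -0.13.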

How the data were processed

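RNA of pooled embryonic tongues was measured in 1 control and 1 mutant library, with cDNA from the NuGEN Ovation RNA-Seq v2 kit, per the labels' protocols. Bowtie 0.12.7, TopHat 1.4.1 and build mm9 are named in the submitters' processing notes. The deposited tables, per the file headers, give FPKM and coverage (a signal not scaled for depth) per RefSeq transcript, laid out as Cufflinks writes them. The Cufflinks version is not given in the sources used here, nor is the strand setting. Groups follow the genotype labels.

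Rows were summed per symbol. Genes entered at 1 FPKM or more in either library with status OK. Log2 ratios used a pseudocount of 1. In genes of a single transcript of at least 1000 nt, coverage times length was kept where it lay between 35 and 65 bases. Its median there, 47.4 bases, was taken as 1 read, a value that the window itself limits. This gave approximate reads and exact conditional (Clopper-Pearson) 95% intervals. The intervals were run on simulated counts that held counting error only, which checks the calculation and not the read estimate or the effect of amplification. The floor was 3 reads. Sequences were not mapped between builds. Alternatives were another pseudocount, 2 filters, 3 scalings and the highest row per gene. Python 3.11.15, pandas 2.3.3 and scipy 1.17.1 were used.

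The members and lists were chosen with earlier results of these data known. The genes named were the 5 members, Mt4 and Osr1, up to 4 genes of each list (2 of each marker list) by size of the log2 ratio at 5 FPKM or more, up to 4 measured neighbours of the cluster, and the 3 genes nearest in log2 ratio to Mt1 and to Mt2, leaving out unnamed models and small RNAs. Exceptions are Gm45774, the 2 models that overlap members, the neighbours beyond 4, Slc30a7, Slc30a10, Slc39a7, Slc39a8 and Slc39a14. Further exceptions are Nqo1, Steap3, Hbb-y, the higher neuron markers Stmn2, Isl1 and Nefm, and the genes that passed the filter in 1 library only. A few other genes falling under it are not reported here.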

Additional observations from a re-analysis of the deposited data

How the results depend on the processing

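Under 7 alternatives (a pseudocount of 0.1, at least 5 FPKM or no filter, the TPM scale, quantile normalization, coverage over the ratio of depths, and the highest row of each gene only), the log2 ratio ran from -1.10 to -1.04 for Mt2 and from -0.40 to -0.37 for Mt1. It ran from -0.08 to -0.04 for Mtf1 and from 0.02 to 0.05 for Slc30a1, both without a value at 5 FPKM. Mt3 gave none, being under the floor. The count of members at least 1.5-fold lower was 1 in each of the 7. The filters and the highest-row setting could not change the ratios of Mt1 and Mt2. Each of these genes has 1 row and passes 5 FPKM. Of 105 list medians under these alternatives, 6 changed sign, all close to 0. They were those of the zinc exporters (-0.0083 at 5 FPKM and -0.0050 after quantile normalization), the zinc importers (0.0033 at 5 FPKM), the promoter factors (0.0015 at 5 FPKM and 0.00033 after quantile normalization) and the STAT3-responsive genes (0.01 without a filter). At 5 FPKM the medians of the STAT3-responsive (-0.15), glucocorticoid-responsive (0.06), iron (-0.02), neuron (-0.13), endothelial (0.03) and macrophage (0.03) lists kept their sign and changed by over 1.5 times. Depth limited Mt3 and Mt4, which could not be told from 0. No paired analysis was possible because each genotype had 1 library and the labels carry no replicate numbers, and for the same reason no library could be left out.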
